A study of Capra hircus with 4 samples.

Results

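Genes for the moving parts of motile cilia were examined in ovarian nuclei of 4 goats. The set comprised every gene whose symbol starts with DNAH, DNAI, DNAAF, CFAP or RSPH and a digit, together with HYDIN, SPAG17, SPAG16, NEK5, NEK10, FOXJ1 and ARMC4. It held 55 of the 28944 genes in the deposited matrices, namely 13 DNAH, 2 DNAI, 4 DNAAF, 25 CFAP and 5 RSPH genes and 6 of the 7 genes named singly. SPAG16 is not among the gene names of the files and was not analysed here. The rule goes by gene symbol and uses no measured value.

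The ovaries came from 2 Du'an goats, the monotocous group with a litter size of 1, and 2 Nubian goats, the polytocous group with a litter size of 3. All 4 goats were about 3 years old, and each had been synchronized with a progesterone device (CIDR, 300 mg) for 17 days without hormones that induce superovulation. Single-nucleus RNA sequencing gave 1 library per goat, so breed cannot be told apart from anything else in which the goats of a breed differed. Of 48332 barcodes, with 40573246 to 71613892 unique molecular identifiers (UMIs, 1 per captured RNA molecule) per library, 44872 nuclei were kept. Doublets could not be removed, because the caller marked 0 nuclei, and 361 barcodes occurred in more than 1 library. Levels are given as CPM, the UMIs of a gene per 1000000 UMIs of the same nuclei. They are not scaled by gene length, so each gene is compared across nuclei and not with other genes.

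A motile cilium is built on an axoneme, a ring of microtubule doublets around a central pair. Outer and inner dynein arms, whose motor subunits are the dynein heavy chains, slide the doublets, while radial spokes and the central pair coordinate the beat. The arms are put together in the cytoplasm by assembly factors, and FOXJ1 is the transcription factor that switches on the motile cilia programme. In the female tract, multiciliated cells are best known from the oviduct, where their cilia help move the oocyte.

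Multiciliated nuclei were identified by a gate that used none of the 55 genes. A nucleus passed with UMIs of at least 6 of 32 other ciliary genes, such as CDHR3, DRC1 and ZBBX, that together took at least 0.2% of its UMIs. The gate held 134 nuclei, which is 0.299% of the kept nuclei and 0.479% of their UMIs. They numbered 2 and 49 in Du'an 1 and Du'an 2, and 7 and 76 in Nubian 1 and Nubian 2. Of the 134, 121 fell in a single cluster of 122 nuclei that was formed without these genes, and 7 lay among epithelial nuclei. In the gate, 31 of the 32 list genes had UMIs and STOML3 had 0, which the gate itself largely sets. Epithelial markers were also raised there, with EPCAM at 279 CPM against 4.34 CPM in all other nuclei and CDH1, the epithelial cadherin, at 174 against 4.75 CPM. On the same epithelial list LGR5 was hardly raised, at 4.96 against 4.11 CPM, and KRT18, at 9.93 against 1.96 CPM, rested on 8 UMIs. The name thus rests on the gate list, with raised epithelial markers beside it. Just inside the gate lay 7 nuclei with 6 or 7 list genes, and just outside it 11 with 4 or 5 list genes and the same share of UMIs. Of the gated barcodes 3 occurred in a second library too.

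Within these nuclei the axonemal genes were seen together. A gated nucleus carried UMIs of a median of 33 of the 55 members, with a range of 2 to 43, and these took a median of 3.72% of its UMIs. The other nuclei had a median of 1 member and 0.0459% of UMIs. Depth differed, with a median of 5667 UMIs in gated and 2270 in other nuclei. Of the 44738 other nuclei, 39 (0.0872%) carried 10 or more members, and 11 of these 39 were epithelial and 15 were granulosa nuclei.

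The members were then separated by level. A gene was called confined when its level in the gate met 2 limits. It had to be at least 20 times that in all other nuclei of the same goat, in both Du'an 2 and Nubian 2. It also had to be at least 5 times that of each other cell class, with all goats pooled. A gene was called widely found when the level was under 4 times that of the other nuclei in both Du'an 2 and Nubian 2. This gave 38 confined, 10 intermediate and 6 widely found genes, while CFAP157, with 12 UMIs in all kept nuclei and 11 of them in the gate, was too sparse to sort. The limits were close for ARMC4, which was confined at 23.7 times in its lower goat and at 5.27 times the epithelial class. CFAP70 was intermediate at 19.6 times in its lower goat. ARMC4 became intermediate over all barcodes or without Nubian 2. DNAI1, DNAH10, CFAP47 and CFAP70 became confined with Nubian 2 alone or without Du'an 2. CFAP69 did so with Du'an 2 alone or without Nubian 2. DNAAF2 lay just above the limit for widely found genes, at 4.36 times, and DNAAF5 below it, at no more than 2.09 times.

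**Figure D1:**
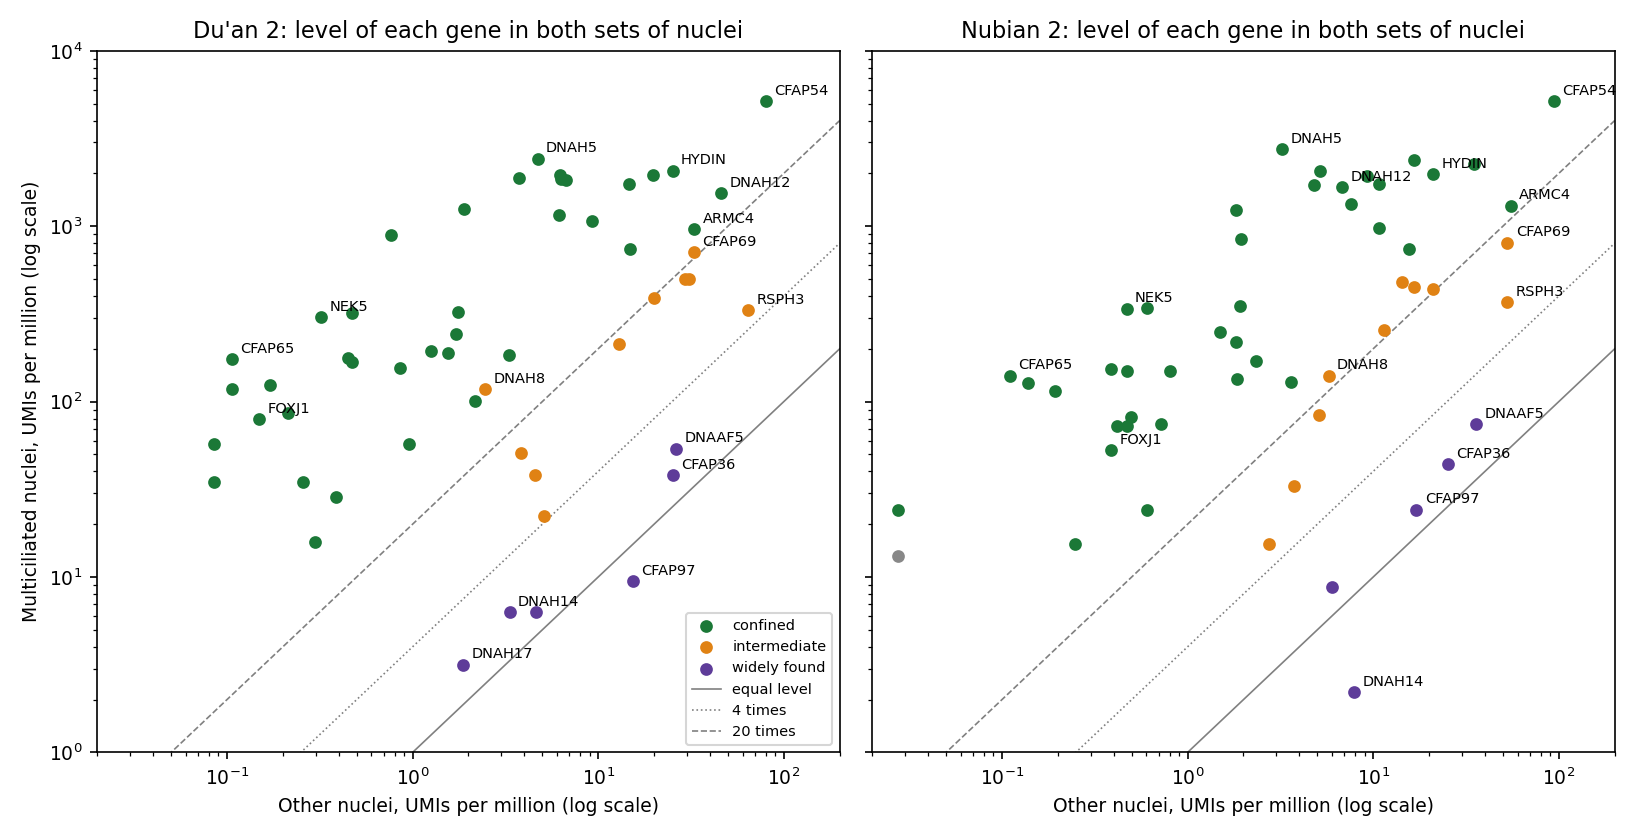
Level of each gene in multiciliated nuclei (y axis, UMIs per 1000000, log scale) against its level in all other nuclei of the same goat (x axis, UMIs per 1000000, log scale), for Du'an 2 and Nubian 2; 1 point is 1 gene with a UMI in both sets, coloured by its group with CFAP157 in grey, and the lines mark equal levels, 4 times and 20 times. The confined genes lie above the 20-times line, and the widely found genes lie under the 4-times line.

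All 13 dynein heavy chains were detected. Of the heavy chains of the outer arm, DNAH5, DNAH9 and DNAH11 were confined. DNAH5, a motor whose loss is a classical cause of primary ciliary dyskinesia, was at 2423 CPM in the gated nuclei of Du'an 2 and 2755 CPM in those of Nubian 2. Its level outside the gate was 0.436 and 4.72 CPM in Du'an 1 and Du'an 2, and 0.734 and 3.23 CPM in Nubian 1 and Nubian 2. The 2 goats with many gated nuclei also had the higher DNAH5 level outside them, and the part of those nuclei in that level was not tested. DNAH11 was at 1879 and 2053 CPM in the gate of Du'an 2 and Nubian 2, and between 1.98 and 5.17 CPM outside it in the 4 goats. DNAH9 was at 1825 and 1928 CPM in the gate against 6.71 to 11.1 CPM outside it.

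The inner arm was represented by 7 heavy chains, of which DNAH1, DNAH2, DNAH3, DNAH6, DNAH7 and DNAH12 were confined and DNAH10 was intermediate. DNAH3 was at 1261 and 1233 CPM in the gate of Du'an 2 and Nubian 2 against 1.30 to 1.90 CPM outside it. DNAH6 was at 1866 and 1719 CPM against 2.95 to 6.32 CPM, and DNAH7 at 1739 and 2273 CPM against 14.7 to 34.7 CPM. For these 3 motors the gated and the other nuclei of the 4 goats did not overlap. The limits for confined genes largely set this in advance, so it adds nothing to the sorting. DNAH12 was at 1543 and 1662 CPM in the gate, but its level outside the gate was uneven, with 3.16 and 45.9 CPM in the Du'an goats and 36.7 and 6.82 CPM in the Nubian goats. DNAH2 and DNAH1 were sparser, with 193 and 200 UMIs in all kept nuclei. DNAH10 was at 497 and 481 CPM in the gate against 18.8 and 30.7 CPM outside it in the Du'an goats and 54.8 and 14.2 CPM in the Nubian goats.

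Of the other outer arm parts, ARMC4, which docks the arm to the doublet, was at 963 and 1308 CPM in the gate of Du'an 2 and Nubian 2. Outside the gate it reached 116 CPM in Du'an 1, 33.0 CPM in Du'an 2, 11.9 CPM in Nubian 1 and 55.1 CPM in Nubian 2. It was therefore confined by its ratio, while most of its UMIs lay elsewhere. The intermediate chains DNAI1 and DNAI2 fell in different groups. DNAI2 was confined, at 155 and 149 CPM in the gate and at most 0.854 CPM outside it. DNAI1 was intermediate, at 212 and 257 CPM in the gate against 5.91 to 12.9 CPM outside it.

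The central pair was represented by 10 genes, 7 of them confined. CFAP54 was at 5138 and 5162 CPM in the gate of Du'an 2 and Nubian 2, and it was also common outside the gate, at 91.4 and 79.9 CPM in the Du'an goats and 91.7 and 93.7 CPM in the Nubian goats. HYDIN, a giant protein of a central pair projection, was at 2072 and 1979 CPM against 15.2 to 25.2 CPM outside. SPAG17 was at 1951 and 1737 CPM against 6.22 to 13.1 CPM, and CFAP46 at 1077 and 980 CPM against 6.73 to 11.1 CPM. CFAP65, with 134 UMIs in all, stood at the other end, at 174 and 141 CPM in the gate and between 0 and 0.110 CPM outside it. CFAP47, CFAP69 and CFAP70 were intermediate. CFAP69 was at 713 and 805 CPM in the gate against 32.7 to 52.8 CPM outside it, and CFAP70 at 390 and 440 CPM against 19.5 to 21.0 CPM. CFAP47 was at 497 and 451 CPM in the gate, and outside it at 10.1 and 29.3 CPM in the Du'an goats and 35.9 and 16.7 CPM in the Nubian goats.

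Among the 5 radial spoke genes, RSPH1, RSPH4A, RSPH6A and RSPH9 were confined and RSPH3 was intermediate. RSPH6A had 11 and 7 UMIs and RSPH9 had 9 and 11 UMIs in the gate of Du'an 2 and Nubian 2. With either of these goats alone RSPH6A was too sparse to sort, and with Nubian 2 alone RSPH9 was intermediate. RSPH4A, a spoke head protein, was at 124 and 128 CPM in the gate and at no more than 0.171 CPM outside it. RSPH3, a spoke stalk protein, was at 333 and 369 CPM in the gate, yet at 67.3 and 64.0 CPM outside it in the Du'an goats and 61.0 and 52.8 CPM in the Nubian goats. The share of RNA from outside a nucleus in these levels was not measured.

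The kinases NEK5 and NEK10 and the transcription factor FOXJ1 were confined. NEK5 was at 304 and 339 CPM in the gate against 0.110 to 0.470 CPM outside it. NEK10 was at 1964 and 2372 CPM against 16.6 to 30.05 CPM. FOXJ1 was sparse, with 72 UMIs in all kept nuclei, and was seen in 26.1% of gated nuclei and 0.0469% of others.

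Of the CFAP genes with other places in the cilium, 11 were confined. CFAP43 and CFAP44, which tether an inner arm motor to the doublet, were at 890 and 849 CPM and at 1159 and 1341 CPM in the gate of Du'an 2 and Nubian 2. Outside the gate CFAP43 ranged from 0.715 to 1.93 CPM and CFAP44 from 6.15 to 9.87 CPM. CFAP45 and CFAP52, which lie inside the doublet microtubule, were confined too, with 45.8% and 87.0% of their UMIs in the gate. CFAP57, CFAP58, CFAP61, CFAP73, CFAP77, CFAP99 and CFAP161 completed this group, with gated means between 53.7 CPM for CFAP73 and 740.0 CPM for CFAP61. CFAP206, a radial spoke protein, and CFAP126, which acts at the basal body, were intermediate. CFAP206 was at 50.7 and 83.5 CPM in the gate against 2.48 to 5.11 CPM outside it. CFAP126 was at 38.01 and 15.4 CPM, from 12 and 7 UMIs, against 2.26 to 4.55 CPM.

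The assembly factors divided over all groups. DNAAF1 and DNAAF3 were confined, DNAAF2 was intermediate and DNAAF5 was widely found. DNAAF1 rested on 5 and 11 UMIs in the gate of Du'an 2 and Nubian 2. It was too sparse to sort with either goat alone, and intermediate without Nubian 2. DNAAF3 was at 168 and 149 CPM in the gate and at 0.0183 to 0.470 CPM outside it. DNAAF2 was at 22.2 and 33.0 CPM, from 7 and 15 UMIs, against 2.48 to 5.08 CPM. DNAAF5 was at 53.9 and 74.7 CPM in the gate against 25.8 and 26.2 CPM outside it in the Du'an goats and 44.8 and 35.8 CPM in the Nubian goats.

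The 6 widely found genes were DNAAF5, CFAP36, CFAP97, CFAP20, DNAH14 and DNAH17. CFAP36 was even across goats, at 24.2 to 30.1 CPM outside the gate and 38.01 and 44.0 CPM inside it. CFAP97 was at 15.4 to 17.5 CPM outside and 9.504 and 24.2 CPM inside. CFAP20, a protein of the inner junction of the doublet, was at 3.69 to 5.97 CPM outside and 6.34 and 8.79 CPM inside, the latter from 2 and 4 UMIs. The heavy chains DNAH14 and DNAH17 were nearly without UMIs in the gate, with 4 and 1 in all 134 nuclei. They were not spread evenly over the other nuclei, and the group name stands for a level under 4 times that of the other nuclei and not for an even spread.

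A high ratio did not mean that a transcript was found nowhere else. The gated nuclei held 0.479% of all UMIs, so a low level in the many other nuclei could add up to more UMIs than a high level in the gate. Over 50% of the UMIs lay in the gate for 17 of the 38 confined genes and for CFAP157. The share reached 91.8% for CFAP65, 85.0% for NEK5, 84.3% for DNAH5 and 81.6% for RSPH4A. It was 21.7% for CFAP54, 22.2% for DNAH12, 18.7% for CFAP61 and 10.8% for ARMC4. It was at most 13.6% in the intermediate group, for DNAH8, and at most 0.899% in the widely found group.

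**Figure D2:**
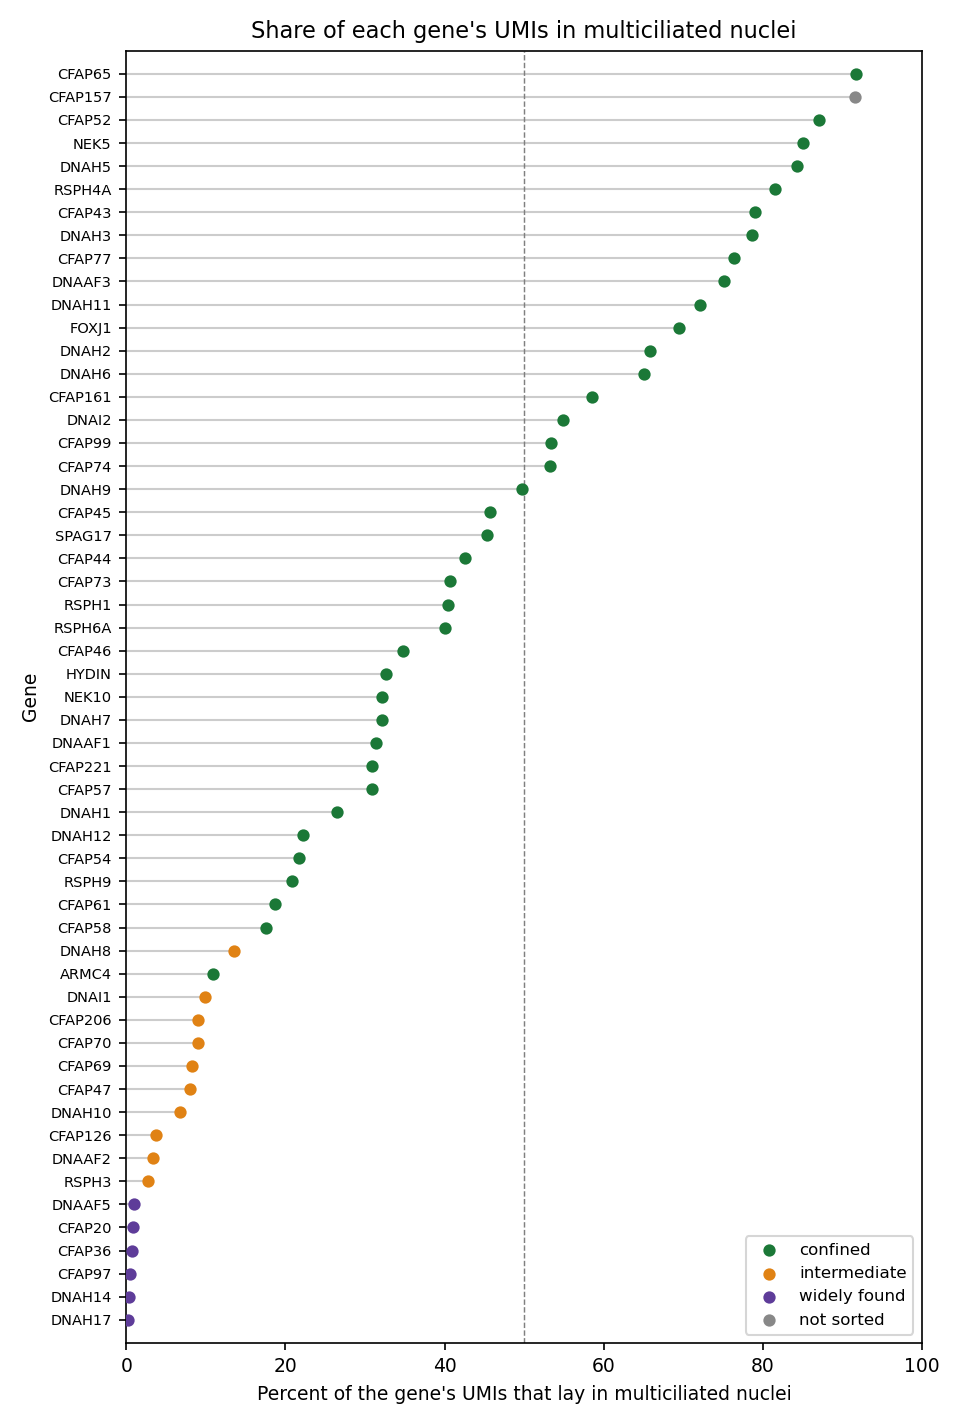
Percent of each gene's UMIs that lay in multiciliated nuclei (x axis), over all kept nuclei of the 4 goats, with 1 line per gene (y axis) coloured by its group and a dashed line at 50%. The shares run from 0.160% for DNAH17 to 91.8% for CFAP65, and 21 confined genes lie left of the dashed line.

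Since depth differed, the shares of nuclei with a UMI were compared at equal depth. When each nucleus was thinned to 1000 UMIs, 130 gated and 34401 other nuclei remained and 4 and 10337 shallower ones were left out. A confined gene was then seen in a median of 23.5% of gated and 0.150% of other nuclei, and a widely found gene in 0.769% and 1.21%. A thinned gated nucleus held a median of 15 of the 38 confined genes and an other nucleus 0. The groups had been sorted by level in these same nuclei, so a gap between them follows from the sorting. The values describe how often the genes were seen and do not test the groups. A UMI in another nucleus need not come from that nucleus, since free RNA was not subtracted. Without thinning, DNAH5 was seen in 93.3% of gated and 0.747% of other nuclei, and after it in 81.5% and 0.233%. CFAP54 was seen in 97.0% and 20.3%, and after thinning in 96.2% and 9.05%. RSPH3 was seen in 73.1% and 15.5%, and after thinning in 32.3% and 5.65%.

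The 2 goats with many gated nuclei had similar levels in them. Over the 39 members with at least 20 UMIs in the gate of each goat, the level in Nubian 2 divided by that in Du'an 2 had a median of 1.00. It ranged from 0.666 for FOXJ1 to 1.36 for ARMC4, and 38 of the 39 were within 1.5 times. Du'an 1 and Nubian 1 entered the sorting only through the limit of 5 times, which pooled all goats. There the 38 confined genes summed to 34493 CPM in the 2 gated nuclei of Du'an 1 and 20831 CPM in the 7 of Nubian 1. Outside the gate the sum was 348 CPM in Du'an 1, 296 CPM in Du'an 2, 279 CPM in Nubian 1 and 318 CPM in Nubian 2. The 2 goats with 2 and 7 gated nuclei had the highest and the lowest of these sums. Of the sums, ARMC4 alone made up 116 CPM in Du'an 1, 33.0 CPM in Du'an 2, 11.9 CPM in Nubian 1 and 55.1 CPM in Nubian 2. The order of the goats thus depends on this gene.

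For a test, the UMIs of all nuclei of a class in a goat were added up, and the classes were compared by edgeR's quasi-likelihood test with the goat as a block, over 61 sums of at least 20 nuclei, 16 classes and 14479 genes. All members except CFAP157 were tested. In multiciliated nuclei 50 of the 54 members were higher than the mean of the other classes at an adjusted p under 0.05, against 17.2% of all genes, and 0 were lower, against 9.25% of all genes. The median log2 fold change was 7.42 over the members and -0.17 over all genes. The multiciliated side rested on the sums of Du'an 2 and Nubian 2. A gene close to 0 in all other classes could pass the filter on low counts only through the multiciliated sums. For such genes, CFAP65 among them, the call was largely set in advance, and so was their part in the count of 50. The gate had also selected nuclei by other ciliary genes, and the members were chosen with earlier results of these data known. The count of 50 thus describes the gated nuclei and is no independent test. For genes close to 0 in other classes the fitted size depends on the prior count, so their levels above are the better guide.

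DNAH5 was higher by a log2 fold change of 9.38 ± 0.19 (SE, adjusted p = 7.9e-42 by edgeR), CFAP54 by 5.83 ± 0.17 and ARMC4 by 5.64 ± 0.31. Each SE in this text is the fold change divided by the square root of the F value of the test. It is approximate, and least reliable for genes close to 0 in other classes. In the intermediate group DNAH10 rose by 5.75 ± 0.24 and RSPH3 by 3.05 ± 0.23. DNAAF5 rose by 1.48 ± 0.34 (adjusted p = 4.0e-04) and CFAP36 by 0.94 ± 0.36 (adjusted p = 0.044), both by edgeR. CFAP20 (0.93 ± 0.78), CFAP97 (-0.06 ± 0.44), DNAH17 (-0.27 ± 1.63) and DNAH14 (-0.36 ± 1.03) did not pass the test. CFAP36 did not pass without Du'an 2 (adjusted p = 0.15) or without Nubian 2 (adjusted p = 0.54), and over its alternatives its log2 fold change ranged from 0.66 to 1.14.

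Other genes that ciliated cells use moved with the members. Of 46 axonemal genes under other symbols, such as tektins, adenylate kinases and docking proteins, 41 could be tested. In the same comparison 40 were higher, against 17.2% of all genes, with a median log2 fold change of 5.78. Here too, genes close to 0 in all other classes could pass the filter only through the multiciliated sums. The gate itself had selected nuclei by UMIs of ciliary genes, among them the tektins TEKT1 and TEKT2 and the adenylate kinase AK7. The lists here and below were also chosen with earlier results of these data known. The counts of ciliary genes thus describe the gated nuclei and are no independent test. IQCA1, a protein of the nexin link, rose by 9.26 ± 0.23 and AK9, an adenylate kinase, by 9.05 ± 0.22. Of 36 genes of intraflagellar transport and the BBSome, which carry cargo in motile and primary cilia alike, 31 were higher and 1, TTC21B, was lower. The shares of all genes were 17.2% and 9.25%. The median of the 36 was 2.23, with IFT88 at 3.84 ± 0.16 and TTC21B at -0.85 ± 0.24.

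Of 16 regulators of multiciliation, 13 could be tested and 6 were higher, against 17.2% of all genes, with a median of 0.67. MCIDAS, GMNC and CCNO could not be tested. MYB, TP73 and DEUP1, which act in the amplification of centrioles or before it, rose by 6.94 ± 0.47, 6.36 ± 0.55 and 5.83 ± 0.23. Of 9 genes of the oviduct and secretory epithelium, 7 could be tested and 5 were higher, against 17.2% of all genes. Among the 5 were PAX8 (4.49 ± 0.54), MSLN (3.87 ± 0.61) and WT1 (3.66 ± 0.28), with 28, 18 and 658 UMIs in the gate. ESR1 had the smallest change of the 5, 0.70 ± 0.26, and was at 444 CPM in the gate against 428 CPM in all other nuclei. PGR, the progesterone receptor, had 0.20 ± 0.35 and did not pass. SOX17, with 3 UMIs in the gate, did not pass either, and CRISP3 had 0 UMIs there.

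Outside the multiciliated nuclei many members had a class in which they were highest. Each other class was compared with the mean of the remaining ones, without the multiciliated class. In at least 1 class, 46 of the 54 members were higher, with 115 calls in all, of which 81 had a log2 fold change over 1. The same counts over all genes were not made, so these numbers do not set the members apart from other genes. The share of all genes called in the same class is given beside each count of members, and it was higher than that of the members in some classes and lower in others. In a class sum, fewer expressing nuclei and less RNA per nucleus cannot be told apart.

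In theca nuclei, which make androgens around the follicle, DNAH8, an outer arm heavy chain best known from sperm, was at 56.9 and 98.8 CPM in Du'an 1 and Du'an 2 and at 71.6 and 123 CPM in Nubian 1 and Nubian 2. In all other nuclei outside the gate it was between 1.62 and 4.71 CPM in the 4 goats. The groups did not overlap, and the log2 fold change was 4.67 ± 0.35 (adjusted p = 4.4e-16 by edgeR). In theca 4 of the 54 members were higher, against 8.79% of all genes. DNAH8 stayed out of the confined group because of this class, with a level in the gate 1.35 times that in theca. In the gate DNAH8 was at 117 CPM in Du'an 2 and 141 CPM in Nubian 2. It was also called in smooth muscle nuclei, at 9.02 to 24.1 CPM and 2.15 ± 0.35. In an unnamed cluster led by CA3 and THBS2, where 8 of 8 smooth muscle markers were raised, DNAH8 was called by 2.27 ± 0.34. Its level there was 26.8 and 3.86 CPM in the Du'an goats and 8.39 and 32.1 CPM in the Nubian goats. The other theca calls, SPAG17, DNAI1 and DNAH10, were each lost without Du'an 2 and without Nubian 2, and SPAG17 also without Du'an 1 or Nubian 1.

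DNAH9 was called in smooth muscle, where 9 of 54 members were higher against 13.7% of all genes. It was at 34.7 and 38.6 CPM in the smooth muscle nuclei of the Du'an goats and 32.0 and 37.7 CPM in those of the Nubian goats, against 6.17 to 8.92 CPM in all other nuclei, with a log2 fold change of 2.06 ± 0.25. All 4 goats had it higher in smooth muscle. DNAH9 was also called in the unnamed cluster led by CA3 and THBS2, at 24.3 to 28.0 CPM in the 4 goats and by 1.46 ± 0.28. In fibroblasts, where 4 of 54 members were higher against 10.5% of all genes, DNAH9 reached 116 CPM in Nubian 1. It was at 0 CPM in the 22 nuclei of Du'an 1, 6.56 CPM in the 40 of Du'an 2 and 0 CPM in the 10 of Nubian 2, which were too few for the fit. The fibroblast call rested on Nubian 1, and without that goat the log2 fold change went from 3.02 to -0.96 (adjusted p = 0.80 by edgeR).

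In granulosa nuclei, which line the follicle and make estradiol, 13 members were higher against 18.7% of all genes, among them the inner arm chains DNAH10 and DNAH12 and the central pair gene CFAP47. DNAH12 was at 3.28 and 83.8 CPM in the granulosa nuclei of Du'an 1 and Du'an 2 and at 50.6 and 20.2 CPM in Nubian 1 and Nubian 2, against 3.15, 11.4, 9.87 and 5.39 CPM in all other nuclei. It was higher in 3 of the 4 goats and close to the other nuclei in Du'an 1, and its log2 fold change was 2.21 ± 0.23. DNAH10 was at 46.0, 49.6, 73.4 and 38.6 CPM in the same order of goats against 16.7, 13.5, 18.9 and 11.6 CPM, so it was higher in 4 of 4, by 2.29 ± 0.19. CFAP47 was at 12.2, 49.2, 48.6 and 58.5 CPM against 9.91, 11.2, 11.4 and 12.2 CPM, by 2.29 ± 0.23.

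The granulosa nuclei were not uniform. They came from 4 clusters, and the cluster of 1565 nuclei led by LHCGR, of which 1512 came from Du'an 2, held DNAH12 at 171 CPM, with a UMI in 47.0% of its nuclei. The cluster led by CYP19A1, with 6244 of 6380 nuclei from Nubian 1, held it at 62.8 CPM. The cluster of 4340 nuclei led by ALK and WDR72, which came mainly from Du'an 2 and Nubian 1, held it at 6.26 CPM. DNAH12 was among the 10 genes that led the first of these clusters by fold, although no member entered the clustering. As most of its nuclei came from 1 goat, cluster and goat cannot be told apart. DNAH10 was spread more evenly, at 35.7 to 81.2 CPM over the 4 clusters.

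In a cluster led by APCDD1 and SCUBE3, marked cycling granulosa in the plot of levels by class, 13 members were higher against 21.7% of all genes. Its 10 proliferation markers summed to 1336 and 1096 CPM in the Du'an goats and 914 and 1523 CPM in the Nubian goats, against 325, 419, 799 and 517 CPM in all nuclei outside the gate. All 10 were raised in a granulosa cluster too, and none led this cluster by fold, so the name does not set it apart as cycling. DNAI1 was at 24.1 and 24.7 CPM in the Du'an goats and 9.18 and 28.2 CPM in the Nubian goats, against 10.1, 11.2, 5.84 and 7.92 CPM elsewhere, by 2.35 ± 0.23. In progenitor granulosa nuclei 8 members were higher against 17.4% of all genes. DNAH17, the widely found outer arm heavy chain, was at 7.65 and 16.5 CPM in the Du'an goats and 2.56 and 34.6 CPM in the Nubian goats, against 1.47, 1.35, 2.12 and 2.07 CPM elsewhere, by 3.55 ± 0.30. Its level there thus lay lowest and highest in the 2 Nubian goats. DNAH14 was called in pericytes, where the call was lost without Nubian 1, and in smooth muscle. In smooth muscle it was at 33.8, 9.02, 25.1 and 28.7 CPM in Du'an 1, Du'an 2, Nubian 1 and Nubian 2, by 1.79 ± 0.30.

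In T or natural killer nuclei CFAP57 was at 17.6 and 18.1 CPM in the Du'an goats and at 0.858 and 31.8 CPM in the Nubian goats, against 0.600 to 1.59 CPM elsewhere. The value in Nubian 1 came from 1 UMI. Its log2 fold change was 4.46 ± 0.38 (adjusted p = 1.9e-14 by edgeR), and 4 members were higher in this class against 32.2% of all genes. In macrophages, where 9 were higher against 32.8% of all genes, DNAI2 was at 2.35 and 10.1 CPM in the Du'an goats and 5.48 and 10.1 CPM in the Nubian goats, the first from 1 UMI. CFAP206 was at 32.9 and 14.96 CPM in the macrophages of the Du'an goats and 4.38 and 4.34 CPM in those of the Nubian goats, against 2.49, 3.22, 2.44 and 5.14 CPM elsewhere, so Nubian 2 did not have it higher. CFAP54 was called in lymphatic endothelial nuclei, at 253 and 249 CPM in the Du'an goats and 299 and 181 CPM in the Nubian goats against 74.1 to 92.7 CPM elsewhere. Its log2 fold change was 1.38 ± 0.17, and 4 members were higher in that class against 17.1% of all genes. In epithelial nuclei CFAP54 was at 603 and 460 CPM in the Du'an goats and 387 and 166 CPM in the Nubian goats, by 1.81 ± 0.19, so that 3 of the 4 goats had it higher there than in lymphatic endothelial nuclei.

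**Figure D3:**
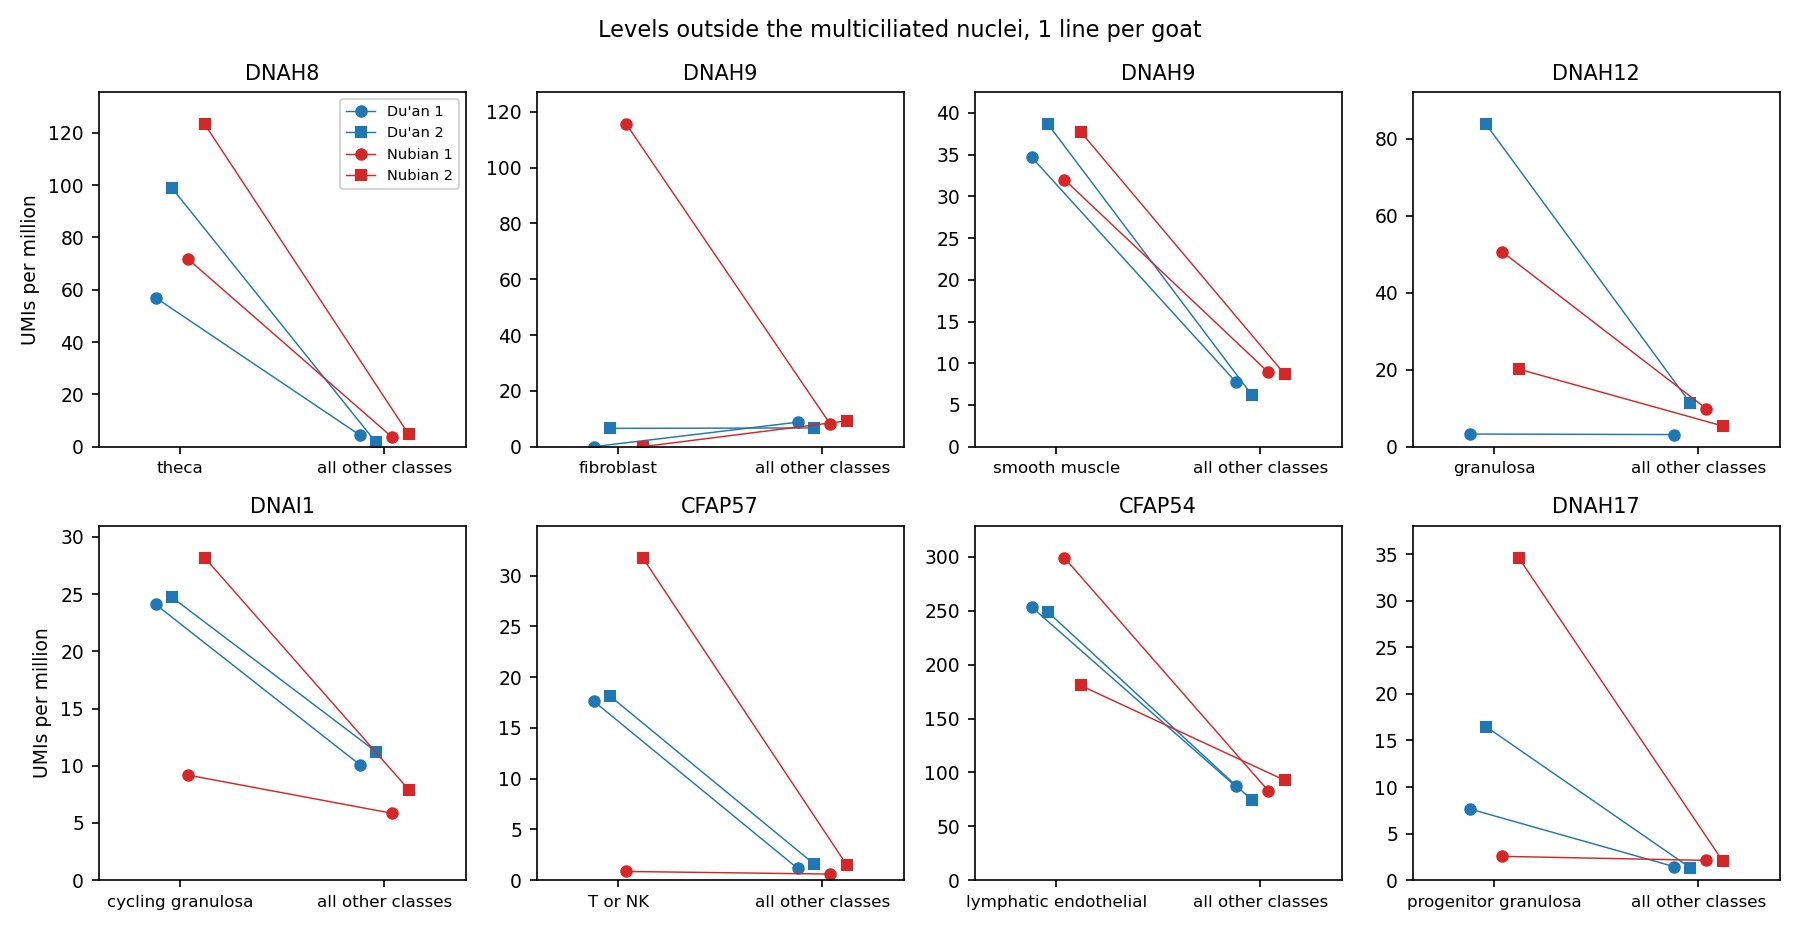
Level of 7 genes (y axes, UMIs per 1000000) in the named class and in all other nuclei outside the multiciliated gate, with 1 line per goat; DNAH9 has a panel each for fibroblasts and smooth muscle, and blue and red mark Du'an and Nubian goats. DNAH8 in theca and DNAH9 in smooth muscle are higher in 4 of 4 goats, whereas the DNAH9 point at 116 CPM in fibroblasts is Nubian 1 alone.

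Epithelial nuclei held the most members at their highest level outside the gate, 14 of the 54 sorted genes. There 15 members were higher against 16.3% of all genes. DNAH7 was at 15.5 and 108 CPM in the Du'an goats and at 110.5 and 84.4 CPM in the Nubian goats, with a log2 fold change of 2.47 ± 0.29. DNAH11 was at 0 and 55.9 CPM in the Du'an goats and at 55.3 and 25.97 CPM in the Nubian goats, by 3.32 ± 0.34. ARMC4 was at 108, 64.5, 144 and 259 CPM in Du'an 1, Du'an 2, Nubian 1 and Nubian 2, by 2.63 ± 0.34. The Du'an 1 and Nubian 1 values rest on 24 and 32 nuclei. DNAH7 and DNAH11 were higher in epithelial than in other nuclei in 3 of 4 goats, with Du'an 1 as the exception, and ARMC4 in Du'an 1 was at 116 CPM in the other nuclei.

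The 32 genes of the multiciliated list were also higher in epithelial nuclei than in the other classes over all goats, although the gated nuclei had been taken out. They summed to 483 to 603 CPM in the epithelial nuclei of the 4 goats, against 59.5 CPM in macrophages to 287 CPM in theca nuclei over all goats, the lowest and the highest of the other classes, and 17115 CPM in the gate. Theca nuclei of single goats reached 465 CPM, in Nubian 1. The epithelial sum of the list was highest, at 603 CPM, in the 24 nuclei of Du'an 1. DNAH7 and DNAH11 had 1 and 0 UMIs in those nuclei, too few to set beside the list. The 38 confined genes summed to 748 to 943 CPM in epithelial nuclei. The part of such nuclei in the epithelial calls was not tested. Without Nubian 2, which held 388 of the 535 nuclei, CFAP61 and CFAP126 were no longer called there.

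In the nuclei of a cluster without a name, led by AJAP1 and APOD, 9 members were higher against 11.3% of all genes. ARMC4 was at 293 CPM in Du'an 1, where 1813 of its 4292 nuclei lay, and at 27.5, 170 and 75.3 CPM in Du'an 2, Nubian 1 and Nubian 2. The 116 CPM that Du'an 1 had outside the gate fell to 53.6 CPM without this cluster. DNAH7 and CFAP46 were called in it as well, at 41.9 and 19.2 CPM over all goats, and DNAH7 no longer was without Du'an 1.

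The remaining classes had calls too. In blood endothelial nuclei 3 members were higher (19.5% of all genes) and in pericytes 2 (7.44% of all genes), DNAH5 and DNAH14. DNAH5 in pericytes rested on 1, 6, 4 and 2 UMIs in Du'an 1, Du'an 2, Nubian 1 and Nubian 2. In the unnamed clusters led by CA3 and THBS2 and by OVN, 9 members each were higher, against 11.3% and 24.5% of all genes.

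Members were also lower in some classes, most in macrophages, where 17 were lower against 20.5% of all genes, and in T or natural killer nuclei, where 14 were against 22.3%. RSPH3, the spoke stalk gene, was at 4.70 and 22.6 CPM in the macrophages of the Du'an goats and 24.1 and 22.4 CPM in those of the Nubian goats. It fell by 1.30 ± 0.25 on the log2 scale there and by 1.24 ± 0.24 in T or natural killer nuclei. CFAP54 fell by 1.98 ± 0.25 and CFAP69 by 2.07 ± 0.26 in macrophages.

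In the other classes fewer members were lower. There were 7 in the cluster led by APCDD1 and SCUBE3 (18.4% of all genes), 3 in granulosa (17.7%) and 5 in progenitor granulosa nuclei (13.1%). There were 6 each in blood endothelial (9.89%) and lymphatic endothelial nuclei (9.01%) and 1 each in epithelial nuclei (12.3%) and fibroblasts (3.92%). Pericytes (3.91%), smooth muscle (5.22%) and theca (8.22%) had 0. The unnamed clusters led by CA3 and THBS2 (3.65%), by AJAP1 and APOD (11%) and by OVN (9.46%) had 0, 4 and 1.

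The comparison of breeds addressed whether these genes differ between monotocous and polytocous goats. In whole libraries 0 of the 54 members tested passed edgeR's quasi-likelihood test, and neither did any of 16801 genes, a background of 0%. At an unadjusted p under 0.05 there were 297 genes and 0 members, and DESeq2 called 29 genes and 0 members. The median log2 fold change of Nubian against Du'an was 0.34 over the members and -0.01 over all genes. DNAAF5, the member with the smallest p, had 0.61 ± 0.23 (adjusted p = 1.00 by edgeR).

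The summed level of the confined genes in whole libraries was 359 and 506 CPM in the Du'an goats and 288 and 727 CPM in the Nubian goats, so the breeds overlapped. The 2 goats with 49 and 76 multiciliated nuclei were highest. Gated nuclei made up 0.0229% (exact 95% binomial interval 0.00278 to 0.0828) and 0.490% (0.363 to 0.647) of nuclei in Du'an 1 and Du'an 2. They made up 0.0442% (0.0178 to 0.0910) and 0.738% (0.582 to 0.923) in Nubian 1 and Nubian 2. The intervals cover counting error only. The difference of the breed means, Nubian minus Du'an, was 0.134 percentage points (two-sided exact permutation test, p = 0.667), and 2 goats against 2 allow no p below 0.333. The goats within a breed differed by more than the breeds did, and the difference changed sign without Du'an 1 (-0.0991 points) or without Nubian 2 (-0.212 points).

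**Figure D4:**
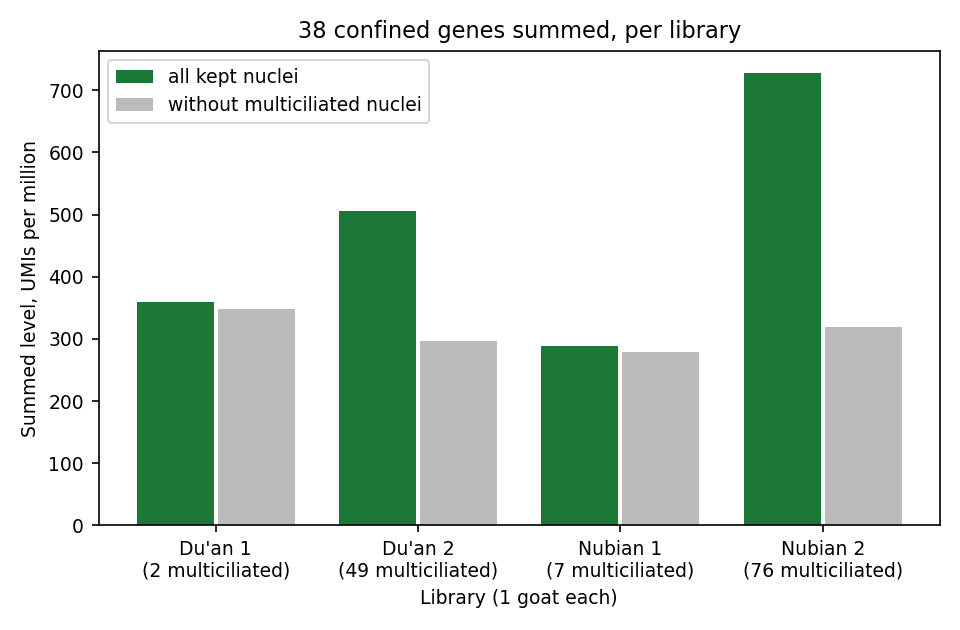
Summed level of the 38 confined genes (y axis, UMIs per 1000000, from 0) in each library (x axis, 1 goat each, with its number of multiciliated nuclei), over all kept nuclei and without the multiciliated nuclei. The green bars run from 288 to 727 CPM and the grey bars from 279 to 348 CPM.

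Within the 14 classes with at least 20 nuclei in each goat, 0 of 250 tests of members passed edgeR's test between breeds, against 0% of 127984 tests of all genes. At an unadjusted p under 0.05 there were 14 of the 250 member tests and 7061 of the 127984 tests of all genes. DESeq2 called 0 members and 654 genes over the same tests. The multiciliated and fibroblast classes were not among the 14, because some goats had too few of these nuclei, so a breed difference inside multiciliated nuclei was not tested. SPAG17 in granulosa nuclei had the smallest unadjusted p among the 250, with a log2 fold change of 1.19 ± 0.27 (adjusted p = 0.46 by edgeR).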

How the data were processed

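RNA of single nuclei was sequenced from the ovaries of 4 goats, each with a library of its own. The authors mapped the reads with Cell Ranger (5.0.0 in their methods, while the matrix headers name 3.1.0) and deposited raw UMI counts per gene and barcode. The deposited tables of marker genes hold fold changes and p-values of the authors' own comparisons and were not used. The libraries held 40573246 to 71613892 UMIs. No sequence is printed, as none was in the files used here.

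Barcodes further than 2 SD from their library's mean in UMIs or genes, or with over 20% mitochondrial UMIs, were removed. Nuclei were clustered with scanpy 1.11.5 and leidenalg 0.10.2 on 2000 variable genes, leaving out the 55 members and all marker lists, and clusters were named from markers. Scrublet marked 0 doublets and removed none.

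UMI counts were summed per goat and class, for sums of at least 20 nuclei, and tested with edgeR 4.0.16 (quasi-likelihood, TMM, R 4.3.3) with the goat as a block, or between breeds without a block, with Benjamini-Hochberg adjustment over all genes and a limit of 0.05. The scripts were tested on simulated data. DESeq2 1.42.0, other scalings, filters, gates and leaving out each goat were the alternatives. Between breeds, p-values rest on 2 goats each. The members and lists were chosen with earlier results of these data known.

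Values are given for the 15 confined members with the highest mean level in multiciliated nuclei, the 6 widely found ones, the intermediate ones and those named singly. Other lists are given as counts with the largest changes, and between breeds members called without overlap were to be named. Further genes were named after their values were seen. Some genes are not reported here. Of the members, 16 overlap another gene in the RefSeq annotation and 5 a protein-coding one, namely DNAH7, DNAH12, DNAH17, DNAI2 and CFAP47, and whether counting used the strand was not tested.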

Additional observations from a re-analysis of the deposited data

Results flagged for a closer look

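Among the 3460 barcodes removed by the filters, which the main comparisons did not use, 41 passed the multiciliated gate, or 1.18% of them against 0.299% of the kept nuclei. Their median was 16900 UMIs, 33 exceeded the limit on UMIs or genes, and 9 exceeded the mitochondrial limit. By goat they numbered 0 and 9 in Du'an 1 and Du'an 2 and 1 and 31 in Nubian 1 and Nubian 2. Their part in the levels was not tested beyond the fit over all barcodes. That fit set gated nuclei against all other barcodes as 1 group, and 51 members were called, counted in both directions. The share of all genes for that fit is not given, and the 17.2% of the main fit does not apply to it.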

How the results depend on the processing

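Counted in both directions, 44 (DESeq2, or sums of at least 5 nuclei) to 51 members were called in multiciliated nuclei over the alternatives. The main fit called 50, all of them higher. The share of all genes called is not given for these alternatives. Over all alternatives 34 to 43 members were confined and 5 or 6 widely found. With a limit of 10 times 5 members were intermediate, and with a limit of 40 times 14. Leaving out each goat gave 6 to 11, the lowest without Du'an 2. At 2000 UMIs a confined gene was seen in a median of 40.3% of gated nuclei. The breed difference in the share of gated nuclei ranged from -0.212 to 0.481 points when a goat was left out, and it reversed to -0.0991 without Du'an 1.

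Of the genes that did not pass in multiciliated nuclei, CFAP97 turned to 0.044 with the cluster in place of the gate, 0.27 over all barcodes, 0.21 against all other kept nuclei and 0.094 with DESeq2, and ranged from -0.99 to 0.38 when a goat was left out. DNAH14 turned to 0.026 with sums of at least 5 nuclei and ranged from -1.56 to 0.81. DNAH17 ranged from -5.81 to 1.57. DNAH9 in fibroblasts ranged from -0.96 without Nubian 1 to 3.42. These are log2 fold changes, and the cause was not tested.

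Within classes, 5 tests of members between breeds passed without the filter on low counts, for ARMC4 in 3 classes, SPAG17 in granulosa and HYDIN in a cluster without a name. That was 5 of 690 tests of members, against 3430 of 244859 tests of all genes. Without Du'an 2, the log2 fold change of ARMC4 in the cluster led by OVN went from -1.30 to -1.92. Leaving out a goat left 1 goat in its breed, so calls from those fits are not given. With the replicate number as a block, 0 members passed in whole libraries and 0 within classes. The deviations of same-numbered goats from their breed mean correlated at 0.161 over 16801 genes. With 2 goats per breed, both pairs give this same value by construction. The labels give no shared origin, so the numbers were not taken to pair the goats. Few multiciliated nuclei in Du'an 1 and Nubian 1 limit the precision there.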
